A study of Mus musculus with 14 samples.

Results

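Gene expression in the whole mouse retina was compared between embryonic day 14 (E14) and the day of birth (P0), with 3 arrays of E14 retina and 4 arrays of P0 retina out of the 14 arrays of the study. These 7 arrays were chosen by their titles, and no measured value was used to choose them. All animals were C57BL/6 mice, no mutation or treatment was named for any sample, and the study describes its replicates as biologically independent, while the sources used here do not say how many animals gave a whole retina sample. The other 7 arrays held Notch1+ cells isolated with an antibody and magnetic beads from retinas of the same ages (3 E14 and 4 P0 arrays), and they are compared below with the whole tissue for their stage change. They also entered the filter, the normalization and the fit, and the retina arrays taken alone called 1735 probes, with 1502 of the 1954 calls given below kept in the same direction. RNA was amplified, labeled with biotin, and hybridized alone to 1 array of long oligonucleotide probes, which was stained with a single dye, and the intensity of each spot was read by a scanner. Values below are normalized intensities without a unit, comparable between arrays for the same probe but not between probes.

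All neurons of the retina and its Müller glia arise from multipotent progenitors in an order that is conserved between species. Ganglion cells, horizontal cells, cones and a part of the amacrine cells are born before birth in the mouse, while most rods, the bipolar cells and Müller glia are born around and after birth. The progenitors keep a common set of transcription factors and Notch pathway genes throughout, and change a further set of genes as they pass from early to late competence. The tissue holds dividing progenitors at both stages, together with young ganglion cells at E14 and photoreceptor and amacrine precursors at P0. In samples of the whole tissue, a loss of cells of a type and a loss of RNA per cell cannot be told apart.

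Of the 34312 mouse probes on the array, 13683 were above background on at least 3 of the 14 arrays and were tested, and these covered 8807 named genes. The number of probes above background was 10609 to 11975 on the E14 retina arrays and 11345 to 13547 on the P0 retina arrays. Over the tested probes, log2 values of the E14 arrays correlated with each other at 0.931 to 0.949 (3 pairs), those of the P0 arrays at 0.907 to 0.938 (6 pairs), and those of E14 with P0 at 0.855 to 0.890 (12 pairs). All E14 retina arrays were scanned on 1 day and all P0 retina arrays on another, so stage and scanning day cannot be told apart in any result below, and p-values measure only the spread between these samples. Eye field and photoreceptor precursor genes that define the tissue, among them Six6 and Otx2, were above background on all 7 arrays. The number of arrays, 3 against 4, limits the precision, and the median standard error (SE) of a log2 fold change was 0.26.

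The first question was how many genes changed as the tissue matured. Between E14 and P0, expression of 1050 probes was higher at P0 (7.67% of those tested) and of 904 probes was lower (6.61%), at an adjusted p under 0.05 in limma. Expression from 733 genes rose (8.32% of the genes tested) and from 646 genes fell (7.34%), with each gene represented by its brightest probe. Of these genes, 337 were named only through gene IDs in lists that the study had selected, and 14.8% of them rose and 14.5% fell. Without them, 683 of 8470 genes rose (8.06%) and 597 fell (7.05%). Samd7 among the rod genes and Ccdc136, Hmga2, Rfc3, Mki67, Kif20b, E2f3, Cntn2, Robo3, Rpl34 and H2az2 in the lists below were named this way, so a list count holds at most 2 such calls among those that moved in 1 direction. All list counts below are to be read against the 8.32% higher and 7.34% lower among all tested genes. The changes were large: the median change of the called probes was 1.03 on the log2 scale, 1019 of them moved by over 1 on that scale, and the median over all tested probes was -0.0030. The E14 and P0 arrays did not overlap for 1893 of the 1954 called probes, against 3997 of all tested probes (29.2%). The count rested on the small number of E14 arrays: it fell to between 1255 and 1278 probes when any 1 of E14 replicates 1, 2 or 3 was left out.

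Part of the rise was in probes that were not above background at E14. Of the tested probes, 414 were above background on none of the 3 E14 arrays and on all 4 P0 arrays, and 239 of these were called higher. The opposite pattern, all 3 E14 arrays and none of the P0 arrays, was held by 94 probes, of which 72 were called lower. For such genes a fold is given as a lower bound. It was computed against the dimmest signal of any probe still above background on the same arrays, or the probe's own reading where brighter. A spot's own background can set a higher limit, so these bounds are approximate. Dlg4, for example, gave 572, 465 and 478 at E14 and was above background on only 2 of these arrays. The plots show such genes at their fitted values, which are no bounds. A probe above background on no E14 array could hardly be called lower, so the filter in part sets the list counts that hold such genes. Among the 8482 probes above background on all 7 arrays, 524 were called higher and 563 lower.

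**Figure D1:**
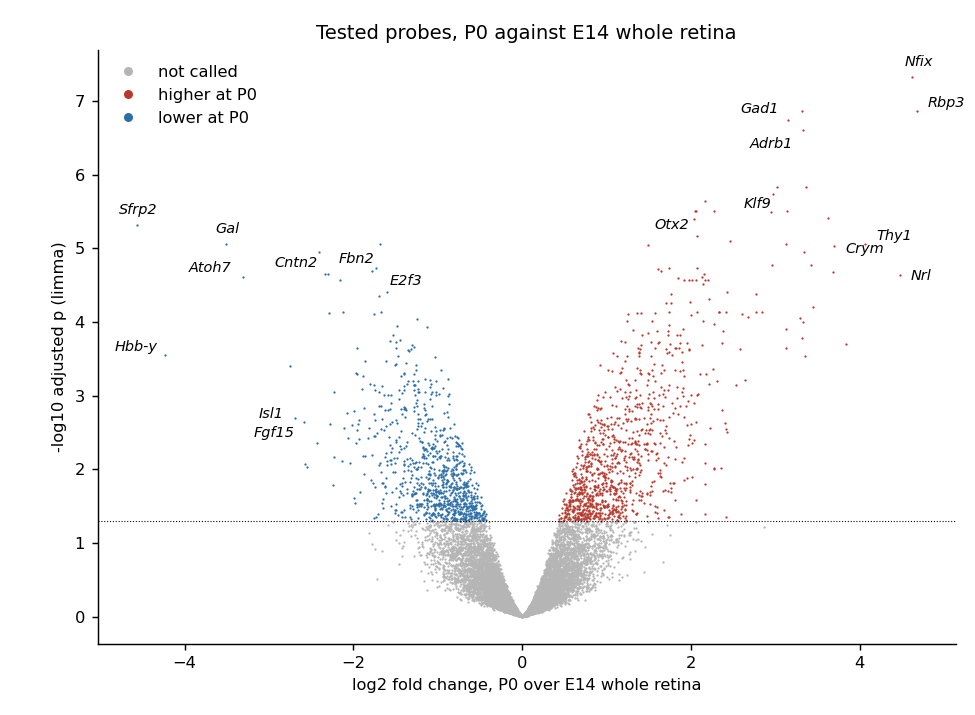
Each point is 1 of the 13683 tested probes, with the log2 fold change of P0 over E14 whole retina on the x axis and the negative log10 of the adjusted p of limma on the y axis, where the dotted line marks an adjusted p of 0.05. The 1050 probes higher at P0 are red and the 904 lower at P0 are blue, with photoreceptor genes such as Rbp3 and Nrl at the right edge and Sfrp2, Gal and Atoh7 at the left edge.

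Many genes of photoreceptors rose, among them transcription factors that specify these cells and proteins of the outer segment. Otx2, the homeobox factor that commits progenitors to the photoreceptor and bipolar fates, was already expressed at E14 and rose further: its intensity was 6676, 7481 and 8460.5 on the E14 arrays and 28786, 28239.9, 35084 and 35085 on the P0 arrays (log2 fold change 2.08 ± 0.17 (SE), adjusted p = 6.76e-06). Crx, which acts downstream of Otx2 in all photoreceptors, gave 299, 381 and 374 at E14 and 1124, 1682, 2744 and 588 at P0. Its log2 fold change was 1.92 ± 0.46, adjusted p = 0.0139, and the call was lost without E14 replicate 1 (adjusted p = 0.0552). Nrl, the factor that directs precursors to the rod fate, was near background at E14. It gave 164, 144 and 137 at E14 and 1544, 2455, 6203 and 5011 at P0, a log2 fold change of 4.48 ± 0.42, adjusted p = 2.28e-05, so that the lowest P0 array lay far above the highest E14 array. Rxrg, a nuclear receptor of cone precursors, rose less (302, 407 and 345 at E14 and 637, 656, 749.5 and 523 at P0; 0.87 ± 0.17, adjusted p = 0.00438). Of the 9 photoreceptor transcription factors tested, 5 rose and none fell, with a median log2 fold change of 0.87, and 3 rose without E14 replicate 1. Rorb and Prdm1, which act upstream of Nrl and in the choice between rods and bipolar cells, were not called, with log2 fold changes of -0.28 ± 0.41 and 0.40 ± 0.21.

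The genes of the rod outer segment and phototransduction followed. Of 22 rod genes tested, 16 rose and none fell. Their median log2 fold change was 2.03, or 1.69 with genes below background at E14 placed at their lower bound, and 11 of the 22 were above background on no E14 array. Another 14 rod genes with a probe were not above background on enough arrays to be tested. Rbp3, the retinoid carrier of the space between photoreceptors and pigment epithelium, rose from a low signal on the E14 arrays. Its intensity was 172, 200.3 and 213 on the E14 arrays and 5047, 4459, 6969.8 and 3829.7 on the P0 arrays, so that no P0 array came near the E14 values (log2 fold change 4.67 ± 0.24 (SE), adjusted p = 1.35e-07). Prph2 and Rom1 form the protein complex that shapes the outer segment discs. Prph2 gave 67.3, 58.0 and 63.7 at E14 and 477, 498, 1416 and 1263 at P0, and was at least 6.01-fold higher at P0 (adjusted p = 2.11e-05), with replicates 3 and 4 above replicates 1 and 2. Rom1, already above background on 2 of the 3 E14 arrays, gave 126, 140.0 and 160.2 at E14 and 1096, 1664, 1571 and 1554 at P0 (log2 fold change 3.36 ± 0.22 (SE), adjusted p = 1.46e-06). Sag, the arrestin of rods, gave 93.8, 78.2 and 83.5 at E14 and 1291, 473, 1285 and 699 at P0, and was at least 6.41-fold higher at P0 (adjusted p = 1.13e-05). Here and in the lists below, genes were also chosen for the smallest change among those above background on all 7 arrays. Those of the rod list were not called, with a log2 fold change of -0.66 ± 0.26 for Gnb1, a transducin subunit, and 0.57 ± 0.34 for Rpgrip1, a protein of the connecting cilium. Ccdc136 and Cldn5 below were also chosen this way but were called.

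All 9 cone genes tested rose, with a median log2 fold change of 1.87, or 1.22 at the lower bounds, while the cone opsins Opn1sw and Opn1mw and the cone arrestin Arr3 were too dim to be tested. Of the 9, 5 were above background on no E14 array. They entered the test through the other arrays and could hardly be called lower. Gngt2, the gamma subunit of cone transducin, was already above background on every E14 array and gave 389.5, 289 and 539.7 at E14 and 5036, 2205, 5633 and 5314 at P0 (log2 fold change 3.44 ± 0.37 (SE), adjusted p = 6.18e-05). Its P0 replicate 2 lay below the other P0 arrays but well above E14. Gnat2, the alpha subunit, gave 166, 140.0 and 122 at E14 and 434, 562, 692 and 632 at P0 (2.01 ± 0.20, adjusted p = 2.72e-05). Gnb3, the beta subunit, gave 117, 123 and 176 at E14 and 1217, 297, 909.7 and 569.6 at P0 (2.27 ± 0.51, adjusted p = 0.00995), with a wide spread at P0. Ccdc136 gave 754, 661 and 1045 at E14 and 1598, 3290.0, 10089.6 and 5464 at P0 (2.36 ± 0.53, adjusted p = 0.00957), again with the stages apart. The 9 cone genes kept their calls without any 1 of the 7 arrays.

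Promoters of rod and cone genes that rose were searched for the short core motif that Otx2 and Crx both bind. The 250 bases before the start of transcription were taken from RefSeq (build GRCm38.p6) and searched for TAATCC and its reverse complement GGATTA. The windows of 19 of the 25 rod and cone genes that rose were in the table, and 8 of these genes had the motif in at least 1 window (42.1%), against 7.21% of all 27025 genes in the table. The same share over single windows was 32.0% of 25 and 6.25% of 32851. A match is a description of the letters and not of binding. No share was computed for photoreceptor genes that did not rise, and a part of Otx2 or Crx in the rise was not tested. In the windows below the match is in capitals and reads GGATTA, because TAATCC lay on the opposite strand in each. This was not so for every gene with a match: Cngb1, not shown, had 2 matches that read TAATCC on its own strand. Every window is written 5′ to 3′ on the strand of its gene, and Prph2 is given as a gene that rose without a match. The match starts 69 bases before the start site in Rbp3 (chr14:33953753-33954002, plus strand), 87 bases before it in Sag (chr1:87803430-87803679, plus strand), 19 bases before it in Gnat2 (chr3:108092816-108093065, plus strand), and 53 bases before it in Aipl1 (chr11:72037510-72037759, minus strand), and the Prph2 window is chr17:46910228-46910477 on the plus strand. The windows were chosen after their matches were seen, as was Aipl1, which encodes a chaperone of the rod phosphodiesterase and was among the 16 rod genes that rose.
Rbp3: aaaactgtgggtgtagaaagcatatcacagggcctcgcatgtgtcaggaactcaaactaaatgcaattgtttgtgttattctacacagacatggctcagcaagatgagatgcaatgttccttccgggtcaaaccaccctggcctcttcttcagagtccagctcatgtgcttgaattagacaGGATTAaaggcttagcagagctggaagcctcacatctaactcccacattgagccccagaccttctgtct
Sag: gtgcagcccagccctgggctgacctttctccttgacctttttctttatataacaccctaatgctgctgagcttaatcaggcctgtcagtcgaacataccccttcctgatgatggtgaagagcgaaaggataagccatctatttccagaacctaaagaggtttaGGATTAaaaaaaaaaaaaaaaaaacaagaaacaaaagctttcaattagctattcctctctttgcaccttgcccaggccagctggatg
Gnat2: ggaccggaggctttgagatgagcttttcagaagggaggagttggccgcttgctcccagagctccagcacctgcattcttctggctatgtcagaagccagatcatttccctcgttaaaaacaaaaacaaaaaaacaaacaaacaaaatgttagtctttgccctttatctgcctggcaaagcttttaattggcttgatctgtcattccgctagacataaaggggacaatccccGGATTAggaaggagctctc
Aipl1: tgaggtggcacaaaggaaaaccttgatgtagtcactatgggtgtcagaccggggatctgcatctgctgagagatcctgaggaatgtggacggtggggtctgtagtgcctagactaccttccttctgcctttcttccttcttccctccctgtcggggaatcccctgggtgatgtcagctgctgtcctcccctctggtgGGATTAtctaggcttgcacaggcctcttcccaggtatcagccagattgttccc
Prph2: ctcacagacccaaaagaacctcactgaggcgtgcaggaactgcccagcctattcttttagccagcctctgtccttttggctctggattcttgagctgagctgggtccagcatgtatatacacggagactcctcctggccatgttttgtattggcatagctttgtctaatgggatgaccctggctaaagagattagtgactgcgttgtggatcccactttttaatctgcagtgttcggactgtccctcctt

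**Figure D2:**
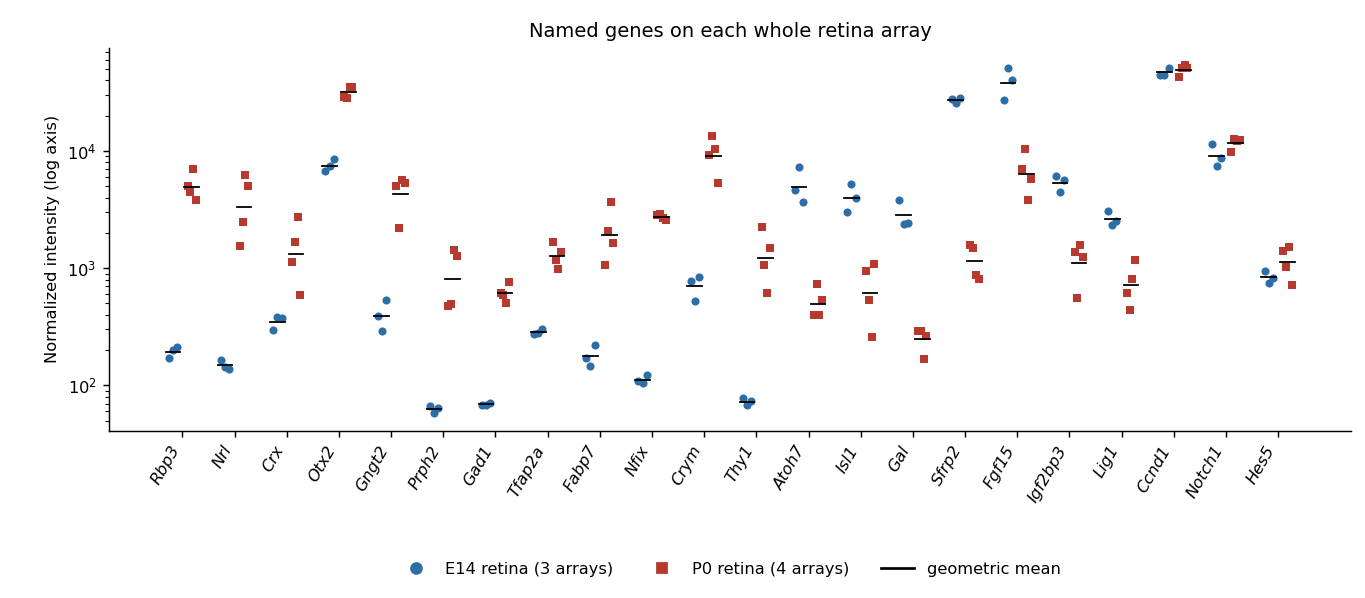
The normalized intensity of 22 named genes is plotted on a log axis for each of the 3 E14 (circles) and 4 P0 (squares) whole retina arrays, with the geometric mean of each group as a line. The groups lie apart for the photoreceptor genes at the left and for Sfrp2, Gal and Atoh7, and overlap for Ccnd1, Notch1 and Hes5 at the right.

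Genes of amacrine and horizontal cells formed the other large group that rose among neurons. Of 20 tested, 12 rose and 1 fell, with a median log2 fold change of 1.29, or 1.25 at the lower bounds. Gad1, which makes the transmitter GABA, was below background at E14 and gave 68.5, 68.3 and 70.4 at E14 and 610.0, 585, 507 and 766 at P0, at least 4.54-fold higher at P0 (adjusted p = 1.80e-07). The P0 arrays were close together, and the E14 arrays were all below background. Npy, a neuropeptide, was also above background only at P0 (62.0, 70.5 and 63.7 at E14 and 653, 374, 448 and 623 at P0; a rise of at least 3.8-fold, adjusted p = 1.82e-06). Calb2, the calcium-binding protein calretinin of amacrine and ganglion cells, gave 813, 549 and 1182 at E14 and 5547, 4398, 1765 and 6891 at P0 (log2 fold change 2.36 ± 0.39 (SE), adjusted p = 0.00157). Tfap2a, a transcription factor of amacrine cells, gave 273, 281 and 303 at E14 and 1669.5, 1165, 977 and 1376 at P0 (2.15 ± 0.20, adjusted p = 2.21e-05). Th, the enzyme of dopamine synthesis, was the member that fell: it gave 240.2, 231 and 154 at E14 and 89.4, 84.0, 74.9 and 82.7 at P0, at least 1.58-fold lower at P0 (adjusted p = 2.07e-04). Foxn4, which acts earlier, in the progenitors of amacrine and horizontal cells, was not called (0.38 ± 0.50).

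Few markers of bipolar cells could be tested. Of 19 bipolar genes only 7 could be tested, and 5 of these were above background on no E14 array. Cabp5, a calcium-binding protein of bipolar cells, was the clearest: it gave 61.0, 61.2 and 60.6 at E14 and 174, 185, 284 and 167 at P0 and was at least 1.47-fold higher at P0 (adjusted p = 5.47e-05). Lhx4, a factor of bipolar and cone cells, was at least 1.33-fold higher (105, 111 and 108 at E14 and 165, 206, 200.4 and 149 at P0; adjusted p = 0.00867). The 1 member that fell, Isl1, also belongs to ganglion cells. Of 16 Müller glia genes, 7 rose and 1 fell (median log2 fold change 0.65), but only 3 rose without E14 replicate 1 or 2, and 4 without P0 replicate 1, 2 or 4. Fabp7, a fatty acid-binding protein of radial glia and late progenitors, gave 173, 146 and 219.6 at E14 and 1054, 2092, 3632 and 1629.8 at P0 (log2 fold change 3.42 ± 0.31 (SE), adjusted p = 1.69e-05). Apoe, the lipid carrier of glia, gave 289, 268 and 422 at E14 and 942, 1126, 1037 and 1311 at P0 (1.78 ± 0.23, adjusted p = 2.76e-04). Rlbp1, the retinaldehyde-binding protein of Müller glia, was above background only at P0 (101, 113 and 105 at E14 and 247, 476, 234 and 474 at P0; a rise of at least 2.52-fold, adjusted p = 0.00214). Glul, glutamine synthetase, was not called (0.39 ± 0.42), and P0 replicate 1 was far above the other P0 arrays (553, 645 and 686 at E14 and 2237, 527, 474 and 813 at P0).

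Genes of ganglion cells moved in both directions. Among 19 transcription factors of this lineage, 9 fell and 1 rose, with a median log2 fold change of -0.47. Without E14 replicate 1, 7 fell, and without P0 replicate 4, 2 rose. Atoh7, which makes progenitors competent to form ganglion cells, fell the most: its intensity was 4608, 7220.2 and 3686 on the E14 arrays and 396, 732, 402 and 533 on the P0 arrays (log2 fold change -3.31 ± 0.32 (SE), adjusted p = 2.45e-05). Isl1, which acts after Atoh7 in ganglion cell differentiation, gave 3009, 5261 and 3978 at E14 and 939, 538, 259 and 1082 at P0 (-2.70 ± 0.47, adjusted p = 0.00203). Both genes kept a signal on every P0 array. Ebf1 gave 3531, 2452 and 2571 at E14 and 820.1, 927, 294 and 1058 at P0 (-2.01 ± 0.36, adjusted p = 0.00251) and Sox11, a factor of young neurons, gave 12916, 11002 and 12574 at E14 and 3246, 5296, 4469 and 5940.1 at P0 (-1.39 ± 0.23, adjusted p = 0.00148). Tbr1, a T-box factor of a subset of ganglion cells, was the member that rose (111, 128 and 108 at E14 and 284, 228, 165 and 244 at P0; a rise of at least 1.68-fold, adjusted p = 0.00247). Eomes, a related T-box factor, was not called (-0.24 ± 0.17).

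Among 20 effector genes of ganglion cells, 8 fell and 3 rose (median log2 fold change -0.51); 5 fell without E14 replicate 2 or P0 replicate 3. Gal, the neuropeptide galanin, gave 3841, 2393 and 2423 at E14 and 291, 289, 167 and 265 at P0 (log2 fold change -3.51 ± 0.29 (SE), adjusted p = 8.57e-06). Elavl4, an RNA-binding protein of postmitotic neurons, gave 9274, 6994 and 8220.4 at E14 and 1726, 1669, 468 and 1579.8 at P0 (-2.75 ± 0.38, adjusted p = 3.99e-04), with P0 replicate 3 lowest for both genes. Nefm, a neurofilament subunit of long axons, gave 418, 626 and 279 at E14 and 168, 164, 139.9 and 151 at P0 (-1.43 ± 0.22, adjusted p = 9.10e-04). Thy1, the surface protein of mature ganglion cells, went the other way. It was below background on every E14 array and gave 77.3, 68.3 and 73.2 at E14 and 2257, 1067, 619 and 1489.9 at P0, at least 9.09-fold higher at P0 (adjusted p = 8.57e-06). Sncg, gamma-synuclein, gave 6594, 8114 and 11456 at E14 and 4402, 6412, 4259 and 5371 at P0, and although the stages did not overlap it was not called (-0.75 ± 0.34, adjusted p = 0.161). The list therefore held genes that moved in opposite directions, and neither its median nor its count describes all ganglion cell genes.

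**Figure D3:**
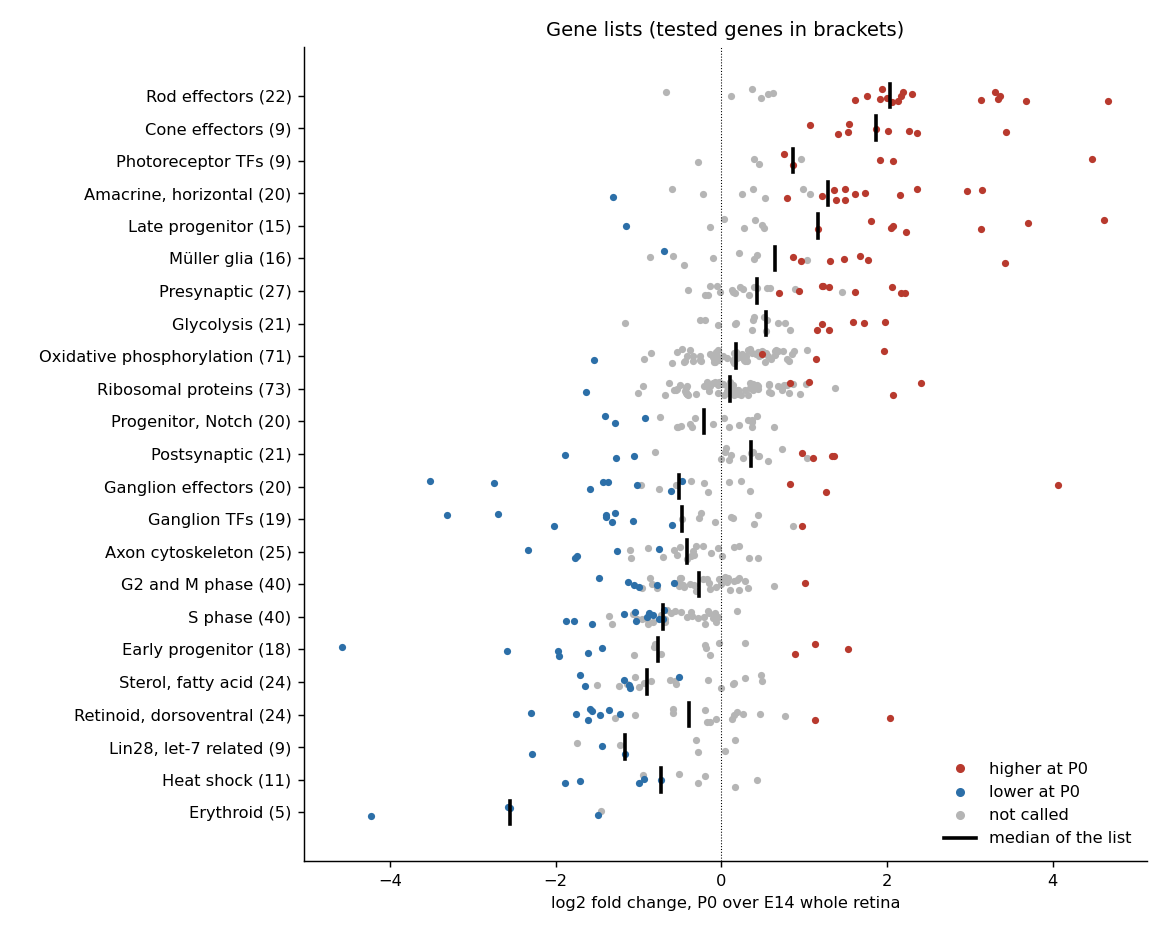
The log2 fold change of P0 over E14 whole retina is plotted for each tested gene of 23 lists, with the number tested in brackets, genes higher at P0 in red, lower in blue and not called in gray, and the median of a list as a black bar. Rod, cone and amacrine lists lie to the right with medians of 2.03, 1.87 and 1.29, and the S phase, sterol and erythroid lists to the left with medians of -0.70, -0.89 and -2.55.

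Genes that mark early and late progenitors changed in both directions. Among 18 genes of early progenitors, 6 fell and 3 rose, with a median log2 fold change of -0.76. Sfrp2, a secreted inhibitor of Wnt signaling, was bright at E14 and fell on every P0 array. Its intensity was 27502, 25458 and 28472 on the E14 arrays and 1578, 1495, 881 and 814 on the P0 arrays (log2 fold change -4.57 ± 0.36 (SE), adjusted p = 4.83e-06). Fgf15, a growth factor of early progenitors, gave 27158, 51000.2 and 39995 at E14 and 7024, 10421, 3812 and 5765 at P0 (-2.59 ± 0.46, adjusted p = 0.0023). The lowest E14 array was above the highest P0 array for both. Foxp1, which promotes early fates in mouse progenitors, gave 2095, 2481 and 1819.9 at E14 and 624, 371, 589 and 632 at P0 (-1.96 ± 0.39, adjusted p = 0.00441), and Dlx1, a homeobox factor of ganglion and amacrine precursors, gave 1226, 1597 and 2029 at E14 and 298, 367, 485 and 512 at P0 (-1.96 ± 0.28, adjusted p = 5.05e-04). The 3 that rose were Meis2, Tbx2 and Lhx9, of which Meis2 gave 281, 244 and 229 at E14 and 865, 623, 615 and 839 at P0 (1.54 ± 0.21, adjusted p = 4.54e-04). The call of Lhx9 was lost with plain subtraction of the background (adjusted p = 0.08995).

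Among 15 genes of late progenitors, 8 rose and 1 fell, with a median log2 fold change of 1.17. Nfix, one of the nuclear factor I proteins that are needed for late-born cells, was below background on every E14 array and was among the highest risers. It gave 108, 105 and 124 at E14 and 2836, 2894, 2692 and 2578 at P0, at least 20.5-fold higher at P0 (adjusted p = 4.68e-08), and the 4 P0 arrays were within a narrow range. Crym, a thyroid hormone-binding protein, gave 777, 528 and 846 at E14 and 9243, 13511, 10421 and 5337 at P0 (log2 fold change 3.70 ± 0.31 (SE), adjusted p = 9.32e-06). Klf9, a thyroid hormone-responsive factor, gave 482, 368 and 636 at E14 and 3854, 4865, 3533 and 4974 at P0 (3.14 ± 0.23, adjusted p = 3.14e-06). Car2, a carbonic anhydrase of glia, gave 142, 156 and 444 at E14 and 821, 742, 1623 and 1013 at P0 (2.22 ± 0.40, adjusted p = 0.00274). The member that fell was Ccnd3, cyclin D3 (2256, 1309 and 1569.8 at E14 and 1007, 771, 645 and 633 at P0; -1.15 ± 0.29, adjusted p = 0.0174), whose call was lost without E14 replicate 1. Id1, Id3 and Hes5, targets of BMP and Notch signaling, were not called, with log2 fold changes of 0.28 ± 0.59, 0.03 ± 0.37 and 0.41 ± 0.43.

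Genes tied to the RNA-binding protein Lin28 and the let-7 microRNAs, a timing system that works in many young tissues, were tested in 9 cases, of which 3 fell and none rose (median log2 fold change -1.16), while Lin28a itself was too dim. Igf2bp3, an mRNA-binding protein that let-7 represses, gave 6066, 4502 and 5633 at E14 and 1369, 552, 1566 and 1249 at P0 (log2 fold change -2.28 ± 0.41 (SE), adjusted p = 0.00246). Hmga2, a chromatin protein and let-7 target, was above background only at E14 (272, 198 and 484 at E14 and 112, 112, 96.8 and 118 at P0; at least 2.28-fold lower at P0, adjusted p = 0.00153). Igf2bp1 gave 4777, 3743 and 4367 at E14 and 1553, 460.4, 2446 and 1521 at P0, which did not overlap but was not called (-1.74 ± 0.71, adjusted p = 0.12), while Hmga1 gave 0.17 ± 0.28. The fall was thus measured in some of these genes and not in others.

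The common progenitor genes that were called all fell. Of 20 eye field and Notch pathway genes, 3 fell and none rose, and the median log2 fold change was -0.21. Among all tested genes 7.34% fell and 8.32% rose, so 3 calls in 20 do not show a list more stable than the rest. Notch1 gave 11354, 7375 and 8681 at E14 and 9718, 12698, 12126 and 12296 at P0, with overlapping groups (log2 fold change 0.37 ± 0.31 (SE), adjusted p = 0.466), and Six6, an eye field factor, gave -0.10 ± 0.18. The 3 that fell were Notch3, another receptor, Rbpj, the DNA-binding partner of the cleaved receptors, and Jag1, a ligand. Notch3 gave 2015, 2248 and 1728 at E14 and 942, 626, 702 and 771 at P0 (-1.40 ± 0.21, adjusted p = 7.30e-04). Rbpj gave 242, 259 and 343 at E14 and 116, 101, 118 and 123 at P0, at least 2.14-fold lower at P0 (adjusted p = 7.10e-04). A p that misses the threshold does not show that the other 17 were equal at both stages, since the SE of Notch1 alone was 0.31.

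Some genes of DNA replication and of mitosis fell, and the difference between these groups was not tested. Of 40 S phase genes, 12 fell, none rose and 28 were not called, 39 had a log2 fold change below 0, and the median was -0.70. The count was 7 without E14 replicate 1. Lig1, the ligase that joins replication fragments, gave 3079, 2318 and 2503 at E14 and 617, 437, 815 and 1175 at P0 (log2 fold change -1.87 ± 0.31 (SE), adjusted p = 0.00148). Uhrf1, which maintains DNA methylation after replication, gave 2128, 1706 and 1908 at E14 and 288, 902, 608 and 605 at P0 (-1.78 ± 0.37, adjusted p = 0.00645), and Mcm10, a replication initiation factor, gave 1003, 1479 and 1093 at E14 and 429, 666, 347 and 258 at P0 (-1.55 ± 0.32, adjusted p = 0.00585). Of 40 G2 and M phase genes, 6 fell and 1 rose (median -0.27), and between 2 (without E14 replicate 2) and 4 fell when any 1 of the 7 arrays was left out. Kif20b, a mitotic kinesin, gave 608, 654 and 662 at E14 and 259, 355, 297 and 269 at P0 (-1.13 ± 0.23, adjusted p = 0.00557). Bub1b, a spindle checkpoint kinase, was not called (SE 0.52), and Mki67, a marker of dividing cells whose probe was dim, was at least 1.21-fold lower at P0 (136, 165 and 173 at E14 and 101, 113, 109 and 99.7 at P0; adjusted p = 0.0232). That call was lost without E14 replicate 2 or 3 or P0 replicate 1 or 4.

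Among 16 genes of G1 control, 3 rose and 2 fell, or 1 without E14 replicate 1. The inhibitors of cyclin-dependent kinases Cdkn1a and Cdkn2c rose. Cdkn2c gave 1010.5, 967 and 1039.5 at E14 and 2455, 2843, 2252 and 2477 at P0 (1.31 ± 0.15, adjusted p = 1.30e-04), and Cdkn1a gave 149, 241 and 206 at E14 and 596, 973, 1132 and 488 at P0 (1.95 ± 0.35, adjusted p = 0.00247). The third that rose was E2f1, an activator of S phase genes (504, 706 and 715 at E14 and 1849, 789, 1828 and 1607 at P0; 1.18 ± 0.34, adjusted p = 0.0318), whose call was lost when any 1 array other than P0 replicate 2 was left out. E2f3, a related activator, fell (1701, 1623 and 1245 at E14 and 524, 423, 378 and 553 at P0; -1.70 ± 0.18, adjusted p = 4.39e-05). Ccnd1, the main cyclin D of retinal progenitors, was among the brightest probes and was not called (44734, 44742 and 50999.6 at E14 and 42333, 51000.2, 53800.4 and 51000.5 at P0; 0.08 ± 0.18), with 1 P0 array saturated.

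Among genes of spatial pattern and of retinoic acid and thyroid hormone handling, more fell than rose. Of 24 tested, 8 fell and 2 rose, with a median log2 fold change of -0.39. Aldh1a3, the enzyme that makes retinoic acid in the ventral retina, gave 478, 804 and 874 at E14 and 159, 123, 137 and 149.9 at P0 (log2 fold change -2.30 ± 0.25 (SE), adjusted p = 7.47e-05). Tbx5, a T-box factor of the dorsal retina, gave 735, 525 and 661 at E14 and 207, 261, 167 and 220.0 at P0 (-1.59 ± 0.27, adjusted p = 0.00158). Crabp1, a retinoic acid-binding protein of young neurons, gave 16764, 27507 and 9687 at E14 and 5792, 6001, 4218 and 5895 at P0 (-1.60 ± 0.35, adjusted p = 0.00863). Tbx2, another T-box factor of the dorsal retina, rose (417, 561 and 319 at E14 and 654, 918, 1239 and 974 at P0; 1.13 ± 0.23, adjusted p = 0.00529). Dorsal genes were thus called in both directions. Thra, the thyroid hormone receptor alpha, rose (348, 801 and 563 at E14 and 1792, 3015, 1741 and 2543 at P0; 2.04 ± 0.39, adjusted p = 0.00402). The nuclear receptors Nr2f1 and Rxrb were not called (-0.14 ± 0.55 and 0.12 ± 0.24).

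Some synaptic genes rose. Of 27 presynaptic genes, 9 rose (6 without E14 replicate 1), none fell and 18 were not called (median log2 fold change 0.44, or 0.34 at the lower bounds). Syp, synaptophysin of synaptic vesicles, gave 743, 657 and 767 at E14 and 3795, 2646, 2969.8 and 4245 at P0 (log2 fold change 2.22 ± 0.23 (SE), adjusted p = 4.90e-05). Stx3, the syntaxin of photoreceptor and bipolar ribbon synapses, was above background only at P0 (134, 122 and 120.3 at E14 and 552, 655, 476 and 439 at P0; a rise of at least 3.91-fold, adjusted p = 1.84e-05). Sv2b, a vesicle protein, gave 392, 307 and 381 at E14 and 1658, 652, 3273 and 1890.2 at P0 (2.17 ± 0.43, adjusted p = 0.00455), with P0 replicate 2 the lowest of the P0 arrays. Pclo and Syt11 were not called (-0.01 ± 0.27 and -0.05 ± 0.35). Of 21 postsynaptic genes, 4 rose (6 without P0 replicate 3) and 3 fell, and the sides were not tested against each other. Those that rose included the glutamate receptor subunits Gria2 (164, 158 and 154 at E14 and 463, 395, 337 and 422 at P0; a rise of at least 2.53-fold, adjusted p = 6.15e-04) and Gria3 (90.0, 91.0 and 95.0 at E14 and 245, 240.5, 186 and 289 at P0; a rise of at least 1.77-fold, adjusted p = 2.23e-04). Those that fell included Chrna3, a nicotinic receptor subunit of ganglion cells (2295, 2306 and 2896 at E14 and 502, 469, 911 and 949.8 at P0; -1.89 ± 0.27, adjusted p = 5.40e-04), and Homer1, a scaffold of glutamate receptors (848, 815 and 799.7 at E14 and 385, 271, 351 and 365 at P0; -1.27 ± 0.20, adjusted p = 9.81e-04).

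Of 25 genes of the axon cytoskeleton, 5 fell and none rose (median log2 fold change -0.42). Cntn2, an adhesion molecule of growing axons, gave 780.4, 369.8 and 482 at E14 and 109.7, 100.1, 89.1 and 115 at P0, at least 4-fold lower at P0 (adjusted p = 2.21e-05). Tubb3, the neuronal beta tubulin, gave 18267, 15042 and 16676 at E14 and 7666, 8182, 5193 and 7126 at P0 (-1.26 ± 0.20, adjusted p = 0.00128), and Ank2, an ankyrin of axons, gave 4130.3, 4636 and 2297 at E14 and 1200.0, 744, 869.9 and 1587 at P0 (-1.74 ± 0.33, adjusted p = 0.00354). Ncam1 and Stmn1 were not called (0.01 ± 0.32 and -0.04 ± 0.43). Of 26 genes of axon guidance, 3 rose and 3 fell (11.5% each, against 8.32% and 7.34% of all tested genes), with 1 higher without E14 replicate 3. Efna4, an ephrin, fell (-1.36 ± 0.20, adjusted p = 7.00e-04), as did Efnb2 (-1.31 ± 0.24, adjusted p = 0.00319).

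Among metabolic genes, 6 of 21 glycolysis genes rose and none fell (median log2 fold change 0.54), while 6 of 24 sterol and fatty acid genes fell and none rose (median -0.89). The glycolysis count was 3 without any 1 of E14 replicates 1, 2 or 3. The sterol and fatty acid count was 4 without E14 replicate 1 or 3, and 7 without P0 replicate 2. Pkm, pyruvate kinase, gave 247, 312 and 306 at E14 and 1173, 829, 1519 and 1091 at P0 (log2 fold change 1.97 ± 0.25 (SE), adjusted p = 2.30e-04), and Slc2a3, a glucose carrier of neurons, gave 1070.0, 666 and 842 at E14 and 1753, 2248, 1569 and 3063 at P0 (1.31 ± 0.28, adjusted p = 0.00734). Gapdh, often used as a reference gene, was not called (-0.03 ± 0.39). Cyp51, a demethylase of cholesterol synthesis, gave 2046, 1589.9 and 1803 at E14 and 648, 421, 418 and 826 at P0 (-1.70 ± 0.28, adjusted p = 0.00139), and Sc5d, a desaturase of the same pathway, gave 479, 447 and 452 at E14 and 294, 197, 136 and 220.0 at P0 (-1.17 ± 0.24, adjusted p = 0.00661). Srebf2, the factor that drives this pathway, was not called (0.16 ± 0.30). After normalization, genes of oxidative phosphorylation and ribosomal proteins moved little as groups, with 3 of 71 and 4 of 73 higher, 1 lower in each, and medians of 0.18 and 0.11. Quantile normalization gives every array the same distribution, so it can take up part of a shift that many bright genes share. Only 1 was higher in the first list without E14 replicate 1 and in the second without P0 replicate 4, and none was lower in the first without E14 replicate 3 or in the second without E14 replicate 1 or 2.

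Of 11 heat shock genes, 5 fell and none rose (median log2 fold change -0.73, or -0.51 at the bounds), with the same count without any 1 array. Hspa8, the constitutive chaperone HSC70, gave 30600.0, 30173 and 50044 at E14 and 12919, 10174, 6945 and 9766 at P0 (log2 fold change -1.88 ± 0.39 (SE), adjusted p = 0.00661), and Hsp90aa1 gave 13790.2, 15309 and 15041 at E14 and 7439, 8268, 6271 and 7829 at P0 (-0.99 ± 0.15, adjusted p = 9.54e-04). The stress-induced Dnajb1 was not called (0.17 ± 0.33). Immediate early genes, which can respond to the handling of tissue, were higher in 3 of 16 cases and lower in none, with 1 higher without E14 replicate 2. Egr1 gave 105, 97.7 and 95.0 at E14 and 622, 715, 788 and 719 at P0, at least 5.27-fold higher at P0 (adjusted p = 7.40e-05). The part of handling in either group was not tested. Among 53 histone genes, 6 rose and 1 fell, or 3 and none without E14 replicate 2. H1f2, a linker histone, gave 197, 362 and 543 at E14 and 4334, 2435, 5586 and 2425 at P0 (3.35 ± 0.44, adjusted p = 2.92e-04). Histone probes can share sequence with close copies of the gene, so these values may belong to more than 1 gene. Bcl2, an inhibitor of apoptosis, fell (596, 1632 and 701 at E14 and 279, 257, 146 and 268 at P0; -1.94 ± 0.37, adjusted p = 0.00391), while 15 of the 17 genes of cell death were not called.

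Several genes with large changes belonged to none of these groups or only loosely. Mcam, an adhesion molecule of the immunoglobulin family, gave 170.2, 193 and 197 at E14 and 2147, 3103, 3312 and 2251 at P0 (log2 fold change 3.83 ± 0.48 (SE), adjusted p = 1.96e-04). Myh14, a nonmuscle myosin heavy chain, gave 133, 143 and 293 at E14 and 2539, 1470.2, 2716 and 2275 at P0 (3.63 ± 0.28, adjusted p = 3.87e-06). Adrb1, the beta-1 adrenergic receptor, was above background only at P0 (87.1, 90.0 and 77.4 at E14 and 754, 856, 1183 and 693 at P0; a rise of at least 6.35-fold, adjusted p = 2.44e-07). Ass1, an enzyme of arginine synthesis, gave 152, 203 and 182 at E14 and 1696, 917, 3578 and 1812 at P0 (3.33 ± 0.38, adjusted p = 9.88e-05). All 4 were higher on each P0 array than on any E14 array. Of those that fell, Fbn2, a fibrillin of embryonic matrix, gave 3424, 4063 and 3891 at E14 and 679, 715, 674 and 1059 at P0 (-2.30 ± 0.22, adjusted p = 2.21e-05), and Stk32a, a kinase, gave 733, 1036 and 892 at E14 and 177, 165, 149.9 and 169 at P0 (-2.41 ± 0.21, adjusted p = 1.13e-05). Col2a1, the type II collagen of the vitreous, rose (1080.3, 2957 and 1833 at E14 and 7769, 12060.2, 9563 and 9688 at P0; 2.42 ± 0.45, adjusted p = 0.00314), and Tnc, a matrix protein of glia, was at least 2.41-fold higher (99.6, 96.7 and 97.7 at E14 and 434, 259, 272 and 359.9 at P0; adjusted p = 1.32e-04).

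Genes of cells outside the neural retina were followed because the tissue holds vessels and blood. Red cell genes were lower at P0: 4 of 5 tested fell, with a median log2 fold change of -2.55. Hbb-y, the embryonic beta-like globin, gave 329, 2227 and 2233 at E14 and 63.4, 62.6, 64.4 and 60.7 at P0, at least 9.09-fold lower at P0 (adjusted p = 2.76e-04). Hbb-b2, an adult globin, gave 509, 833 and 2005 at E14 and 247, 99.3, 151 and 175 at P0 (-2.57 ± 0.56, adjusted p = 0.00855), while Hba-a1 gave 391, 1708 and 2436 at E14 and 1733, 225, 240.4 and 359 at P0 and was not called (-1.46 ± 0.70, adjusted p = 0.192). The summed level of the 5 genes was 2649, 5438 and 9384 on the E14 arrays and 2448, 601, 680.2 and 835 on the P0 arrays, so that it varied within each stage. Its part in the other results was not tested. None of the 8 lens genes was called, although their sum was 5490.2 on E14 replicate 2 against 1110.2 to 2070 on the other 6 arrays. Of 12 endothelial genes 1 rose (8.33%, against 8.32% of all tested genes), Cldn5, a tight junction protein (488, 386 and 462 at E14 and 941, 997, 1552 and 1129 at P0; 1.35 ± 0.21, adjusted p = 0.00105). Of the 12, 9 were above background on no E14 array, 3 of them also on no P0 array, and the median log2 fold change at the bounds was 0.055. The sum was 1689 to 1822 at E14 and 2695 to 3279 at P0, and Cldn5 made up a large part of its rise. Of 5 mesenchymal genes 2 fell, or 1 without E14 replicate 1 or 2, led by Col1a2, a collagen of connective tissue (-1.75 ± 0.30, adjusted p = 0.00174). Of 5 myeloid genes 1 fell, or none without E14 replicate 3, and none of 4 pigment epithelium genes was called. Of 7 oligodendrocyte and astrocyte genes 3 rose, with Pdgfra, the receptor of astrocytes that enter the retina along the optic nerve, at least 2.9-fold higher at P0 (106, 126 and 121 at E14 and 535, 434, 282 and 353 at P0; adjusted p = 1.51e-04).

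A gene can be read by several probes, and 5 genes had probes called in opposite directions: Atl2, Crk, Dohh, Nectin1 and Ube4b. Dohh, an enzyme that modifies a translation factor, had 1 probe with a log2 fold change of 1.35 and another of -1.36. Ube4b, a ubiquitin ligase, had 1 probe at least 3.54-fold higher at P0 and another at -0.70. The values of these genes depend on the probe. Below, some of them recur only among the flagged results and the alternatives.

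The stage change of the whole retina was compared with that of Notch1+ cells by an interaction term in the same model. The model took all arrays as independent, and whether whole retina and Notch1+ arrays of a stage were paired was not examined. The 2 changes were called different for 338 probes (2.47% of those tested), with 208 more positive in the retina and 130 more negative. The count was 591 with arrays scaled to a common median. Scanner files marked all 7 retina arrays, but only 2 of 3 E14 and 1 of 4 P0 Notch1+ arrays, as re-dipped, and with this mark as a covariate the count was 194. The Notch1+ arrays of the 2 stages were also scanned on different days, so that day cannot be told apart from the groups here either. Terminal photoreceptor genes were among the probes that rose more in the tissue: 9 of 22 rod genes and 4 of 9 cone genes differed. Rbp3 changed by 2.32 ± 0.24 on the log2 scale in Notch1+ cells, a difference of 2.35 ± 0.34, adjusted p = 0.00484. Otx2 gave 25458, 18272 and 25669 at E14 and 35937, 32802, 33743 and 37307 at P0 in Notch1+ cells, a difference of 1.46 ± 0.24, adjusted p = 0.00852. These 2 genes rose in both, and further in the tissue. Thy1 gave 68.8, 67.4 and 63.6 at E14 and 132, 86.9, 95.6 and 70.5 at P0 in Notch1+ cells (adjusted p of the difference = 0.00353). Gad1 gave 65.4, 68.4 and 55.8 at E14 and 113, 96.1, 91.6 and 81.5 at P0 in Notch1+ cells (adjusted p of the difference = 2.35e-04). Both were below background on all Notch1+ arrays, so the size of the difference is not given.

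Other genes moved further down in the tissue. Sfrp2 fell in both, to a different extent: it gave 7991, 7149 and 3536 at E14 and 1277, 2558, 1184 and 1012 at P0 in Notch1+ cells, a difference of -2.51 ± 0.50, adjusted p = 0.0228. Lig1 gave 1350.2, 1117 and 2438 at E14 and 2619, 2351, 2794 and 2602 at P0 in Notch1+ cells, a difference of -2.62 ± 0.44, adjusted p = 0.00929, and Mcm10 differed by -1.90 ± 0.45, adjusted p = 0.0438. Lig1 was thus lower at P0 in the tissue and was not called in Notch1+ cells. Aldh1a3 differed by -1.86 ± 0.36, adjusted p = 0.0186, Tbx5 by -1.76 ± 0.38, adjusted p = 0.0282 and Stk32a by -2.60 ± 0.30, adjusted p = 7.79e-04. By contrast, no difference was called for several genes that moved strongly in both. Crym changed by 4.70 ± 0.31 in Notch1+ cells (adjusted p of the difference = 0.255), and Nfix gave 92.9, 77.3 and 80.8 at E14 and 4485, 2232, 3039 and 3585 at P0 (adjusted p of the difference = 0.245). Atoh7 changed by -4.66 ± 0.32, a difference of 1.35 ± 0.45, adjusted p = 0.132, and Gal gave 2384, 3412 and 4701 at E14 and 113, 177, 137 and 94.0 at P0 (adjusted p of the difference = 0.14). None of the 15 late progenitor genes, and 2 of the 18 early ones, were called different between tissue and Notch1+ cells, against 244 of all 8807 tested genes. At that share few calls would fall in lists of this size, so the absence of calls does not set the late list apart. It also does not show that the genes not called changed alike. The 338 calls fell to 138, 186 and 157 without E14 replicate 1, 2 or 3.

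**Figure D4:**
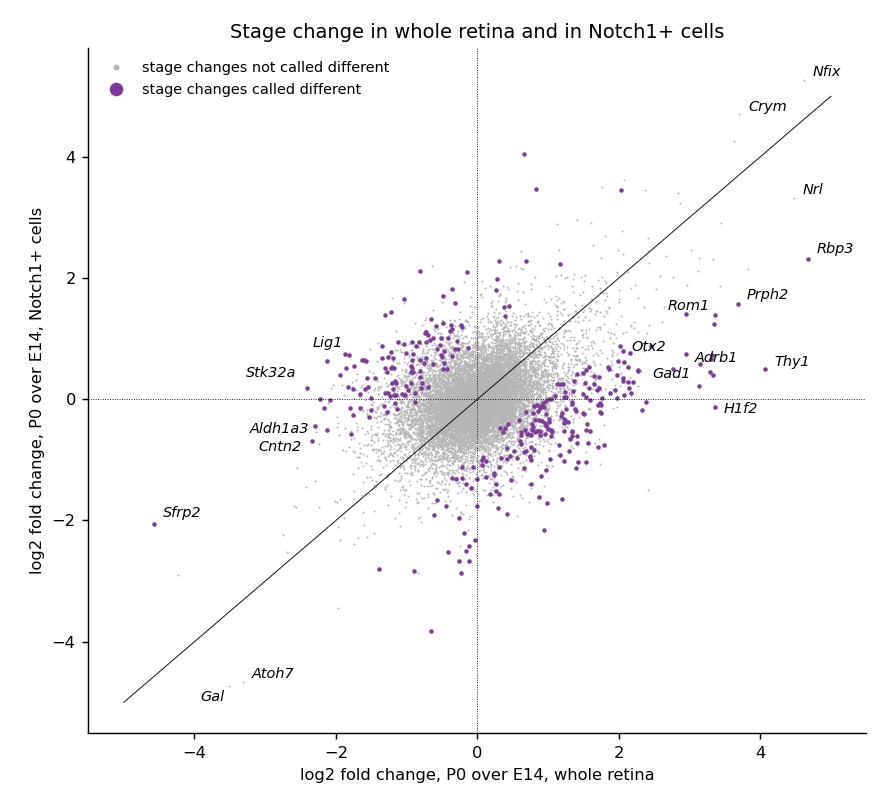
The log2 fold change of P0 over E14 in whole retina (x axis) is plotted against that in Notch1+ cells (y axis) for the 13683 tested probes, with a line at equal values and the 338 probes whose stage changes were called different in purple. Rbp3, Thy1 and Gad1 lie below the line at the right, and Lig1 and Stk32a above it at the left, while Nfix, Crym, Atoh7 and Gal are not called different.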

How the data were processed

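The authors deposited GenePix readings of single-color MEEBO arrays, from which the median intensity of a spot and the median of the background around it were used, and a table of their processed log2 values, which was used only as an alternative. The scaling behind that table is not given in the sources used here. All columns belonged to a sample (0 did not). Of 38880 spots per array, 34312 were mouse probes, of which 22933 were named by accession and 444 by a gene ID taken from the study's supplementary lists, both through RefSeq, and 10935 had no symbol. Background was corrected with normexp (offset 50), and arrays were quantile normalized and put on the log2 scale. A probe was tested if its signal exceeded background by 2 background SDs on at least 3 of the 14 arrays. The 4 groups were fitted with limma 3.58.1 (R 4.3.3, statmod 1.5.0, data.table version 1.17.8), the same model giving the interaction, with Benjamini-Hochberg adjustment over 13683 probes and a threshold of 0.05. The fit was tested on simulated data. A gene was represented by its brightest tested probe, and fold changes are P0 over E14, with SE. A probe above background on no array of a stage has only a bound there. Named genes were 15 that rose and 15 that fell most steeply among called probes whose arrays did not overlap, up to 4 called genes per list and direction, up to 2 bright genes per list with the smallest change, genes with probes called in opposite directions, and 15 chosen by name. The lists and named genes were chosen with earlier results of these data known. Alternatives changed the background correction, normalization, filter, samples, weights, covariates and test, and left out each retina array.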

Additional observations from a re-analysis of the deposited data

Results flagged for a closer look

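In 16 of 230 named genes, 1 of the 4 P0 retina arrays lay apart from the other 3, its gap to the nearest array making up a larger share of the group's range than Dixon's limit for 4 arrays allows, and that share is given in brackets. Chance alone would flag about 1 gene in 20. P0 replicate 1 was the highest for Arid3b (0.844), Cox7a1 (0.864), H3f3b (0.830) and Nr2f1 (0.839), and the lowest for Rom1 (0.837) and Rpgrip1 (0.876). P0 replicate 2 was the highest for Cdca8 (0.891) and the lowest for E2f1 (0.835), Foxp1 (0.870) and Gngt2 (0.881). P0 replicate 3 was the lowest for Bcl2 (0.872), Crabp1 (0.899), Elavl4 (0.932) and Gal (0.833), and the highest for H2ac18 (0.883). P0 replicate 4 was the highest for Fbn2 (0.869).

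The change from E14 to P0 differed between whole retina and Notch1+ cells, by the interaction term in limma, for 33 of the 230 named genes. For 17 of them each group had at least 1 array above background, and the retina change minus the Notch1+ change is given on the log2 scale. More positive in the retina were H1f2 at 3.48, Rbp3 at 2.35, Gapdh at 2.28, Meis2 at 2.04, Rpl34 at 2.01, Pkm at 1.96, Slc2a3 at 1.96, Otx2 at 1.46 and Ppia at 1.37. A positive difference need not be a rise in the retina. Gapdh changed by -0.03 in the retina and by -2.31 in Notch1+ cells (adjusted p = 0.0028 in limma for the latter). More negative in the retina were Lig1 at -2.62, Stk32a at -2.60, Sfrp2 at -2.51, Dohh at -2.24, Mcm10 at -1.90, Aldh1a3 at -1.86, Tbx5 at -1.76 and Arid3a at -1.10. The value of Dohh is that of its brightest probe. Its other probe gave a difference of 1.13, which was not called (adjusted p = 0.11 in limma). The other 16 were below background on all arrays of at least 1 group, so no size is given. Their adjusted p in limma was 2.35e-04 for Adrb1, 0.00893 for Cabp5, 2.35e-04 for Gad1, 0.0479 for Glra2, 0.0492 for Gnat2, 0.0222 for Gria2, 0.0386 for Gria3, 0.0389 for Prph2, 0.00785 for Rom1, 0.0192 for Sag, 0.012 for Tbr1, 0.0245 for Tfap2a, 0.00353 for Thy1 and 0.028 for Tnc, where the retina was more positive, and 0.0175 for Cntn2 and 0.00893 for Th, where it was more negative.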

How the results depend on the processing

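The retina comparison called 1954 probes, 1050 higher and 904 lower at P0. With no filter on dim probes it called 4116 (1931 higher, 2185 lower), and with only probes above background on all 7 retina arrays 846 (404 and 442), where fewer probes were tested. The methods' t-test called 3752 (1905 and 1847) before and 1061 (559 and 502) after Benjamini-Hochberg adjustment. Leaving out 1 retina array gave 1255 to 1621 calls, 680 to 916 higher and 575 to 705 lower. The difference from Notch1+ cells (338 probes) was called for 591 with arrays scaled to a common median, 586 with no filter, 75 with probes above background on all 7 retina arrays, 194 with the re-dip mark of the arrays as covariate, and 138 to 304 without 1 array. The cause was not tested. The retina arrays alone give no value for it. Replicate numbers did not pair the E14 with the P0 retina arrays: deviations of same-numbered arrays correlated at 0.026, -0.068 and -0.011. Pairing of whole retina with Notch1+ arrays of the same stage was not examined. With the replicate block, 849 probes were higher and 697 lower, and 195 differed from Notch1+ cells. Averaging all probes of a gene reversed Atl2 (-0.13), Crk (0.054) and Ube4b (0.59), genes with probes of opposite direction. Of 158 named genes called, 108 kept direction and call in every alternative other than the t-tests. The share of calls higher at P0 was 53.7%, and 46.9% to 56.8% in the alternatives.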
